A study of Homo sapiens with 7 samples.

Results

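Regions occupied by HNF6, GATA6 and NKX6.1 were examined around 7 genes of the NOTCH pathway in human embryonic stem cells on their way to pancreatic progenitors. The genes were the ligands DLL1 and JAG1, the receptors NOTCH1 and NOTCH2, the nuclear effector RBPJ, and the target genes HES1 and HEY1. A region was counted as a member when its midpoint lay within 100 kb of the gene on hg19, so membership rested on position alone. Of the 86081 regions in the 4 deposited lists, 99 were members: 74 of 64919 for HNF6 on day 10, 13 of 6285 for GATA6 on day 10, 11 of 14627 for NKX6.1 on day 13 and 1 of 250 for HNF6 on day 5. After overlapping members of different lists had been joined, they marked 82 distinct places.

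All cells came from CyT49, a single established human embryonic stem cell line, and the labels name no genetic change in any group. Chromatin immunoprecipitation used HNF6 in the gut tube endoderm stage (day 5), HNF6 and GATA6 in pancreatic progenitors (day 10, labelled PE stage) and NKX6.1 on day 13 (labelled PP stage). With only 1 library for each factor and day, differences could not be set against replicate spread, and all values are descriptions without p-values. The inputs of the 3 days were not analysed here. Expression was not measured in these files, so neither the labelled stages nor the activity of the genes could be checked against marker genes.

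NOTCH signalling passes between neighbouring cells. A ligand of the Delta or Jagged family binds a NOTCH receptor on the next cell, the receptor is cleaved, and its intracellular domain joins RBPJ on DNA to switch on genes of the HES and HEY families, which encode transcriptional repressors. In the developing pancreas the pathway is known for holding progenitors back from endocrine differentiation, with HES1 acting against NEUROG3. HNF6 (ONECUT1), GATA6 and NKX6.1 are transcription factors of the same progenitors.

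The HNF6 regions of day 10 were denser around these genes than in the remainder of the genome, and they were spread very unevenly among the genes. The windows held 41.7 HNF6 regions per Mb against 21.3 per Mb elsewhere, a ratio of 1.96. HES1 alone held 23 of the 74 regions, followed by RBPJ with 17, HEY1 and NOTCH2 with 10 each, DLL1 with 8, JAG1 with 4 and NOTCH1 with 2. Without HES1 the ratio was 1.52. JAG1 (16.9 per Mb) and NOTCH1 (7.96 per Mb) lay below the density elsewhere, and the other genes lay above it, from 27.9 (NOTCH2) to 113.6 (HES1). The listed GATA6 regions stood at 7.32 per Mb against 2.06 elsewhere (ratio 3.56, or 2.78 without HES1). All 6285 listed GATA6 regions overlap an HNF6 region, so this ratio is not independent of that of HNF6. For NKX6.1 the values were 6.19 and 4.79 per Mb, a ratio of 1.29, which was 1.06 without HEY1. The remainder of the genome includes gene deserts and closed chromatin, and the share of these ratios that any gene of the progenitor would show was not tested.

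Windows differed in length, from 202 kb for HES1 to 358 kb for NOTCH2, so the HNF6 regions within 100 kb of each start were also set beside the 15248 tiles of 200 kb that cover the genome. HES1 had 23 such regions, a number reached by 4 of the 15248 tiles (0.0262%), whereas a median tile held 4. HEY1 and RBPJ had 10 each, which placed both at the percentile 93.4 of the tiles. DLL1, with 8, stood at the percentile 86.5. NOTCH2 with 4, JAG1 with 3 and NOTCH1 with 2 lay at the percentiles 53.6, 41.5 and 29.1, in the middle or lower part of the distribution. When only regions at or above the median HNF6 score were counted, a choice made after seeing the data, HES1 had 18 and 2 tiles held as many. HEY1 then stood at the percentile 97.1, RBPJ at 83.1, DLL1 at 71.5 and each of NOTCH1, NOTCH2 and JAG1 at 55.1. Thus NOTCH1, JAG1, HEY1 and, slightly, NOTCH2 moved up, and RBPJ and DLL1 moved down.

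**Figure D1:**
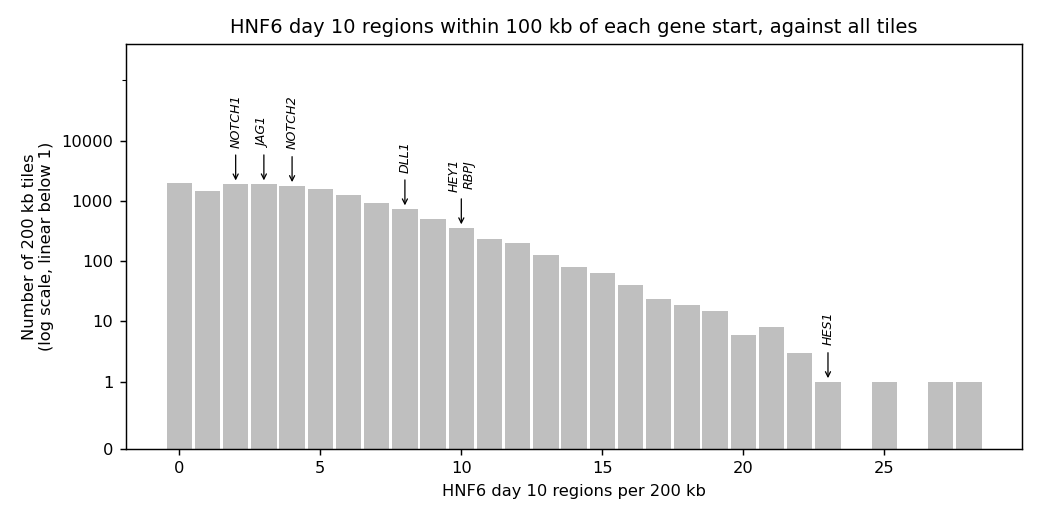
Bars show how many tiles of 200 kb (vertical axis, log scale) held each number of HNF6 day 10 regions (horizontal axis), and arrows mark the number within 100 kb of the start of each gene. HES1, at 23, lies in the far tail, HEY1 and RBPJ share 10, and NOTCH1, JAG1 and NOTCH2 lie at 2 to 4.

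The authors give each region a score, a whole number. Its unit is not given in the sources used, so scores served for ranking inside a list and were never compared between lists. The score percentile below is the share of a list with a lower score, with equal scores counted as if evenly split above and below, so the median of any whole list is 50. HNF6 members had a median score of 118, against 79 in the whole list, which is the percentile 64.6. Scores of the 74 members ran from 17 to 2332, and 12 of them (16.2%, Wilson 95% interval 9.53 to 26.2) lay in the highest decile of the list. The median percentile was 72.4 for the 13 GATA6 members and 75.04 for the 11 NKX6.1 members. GATA6 members ran from the percentile 13.4 to 95.8 and NKX6.1 members from 0.735 to 97.9, so each list contributed weak and strong regions. These and the later intervals cover counting error only, and neighbouring regions are not independent samples.

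**Figure D2:**
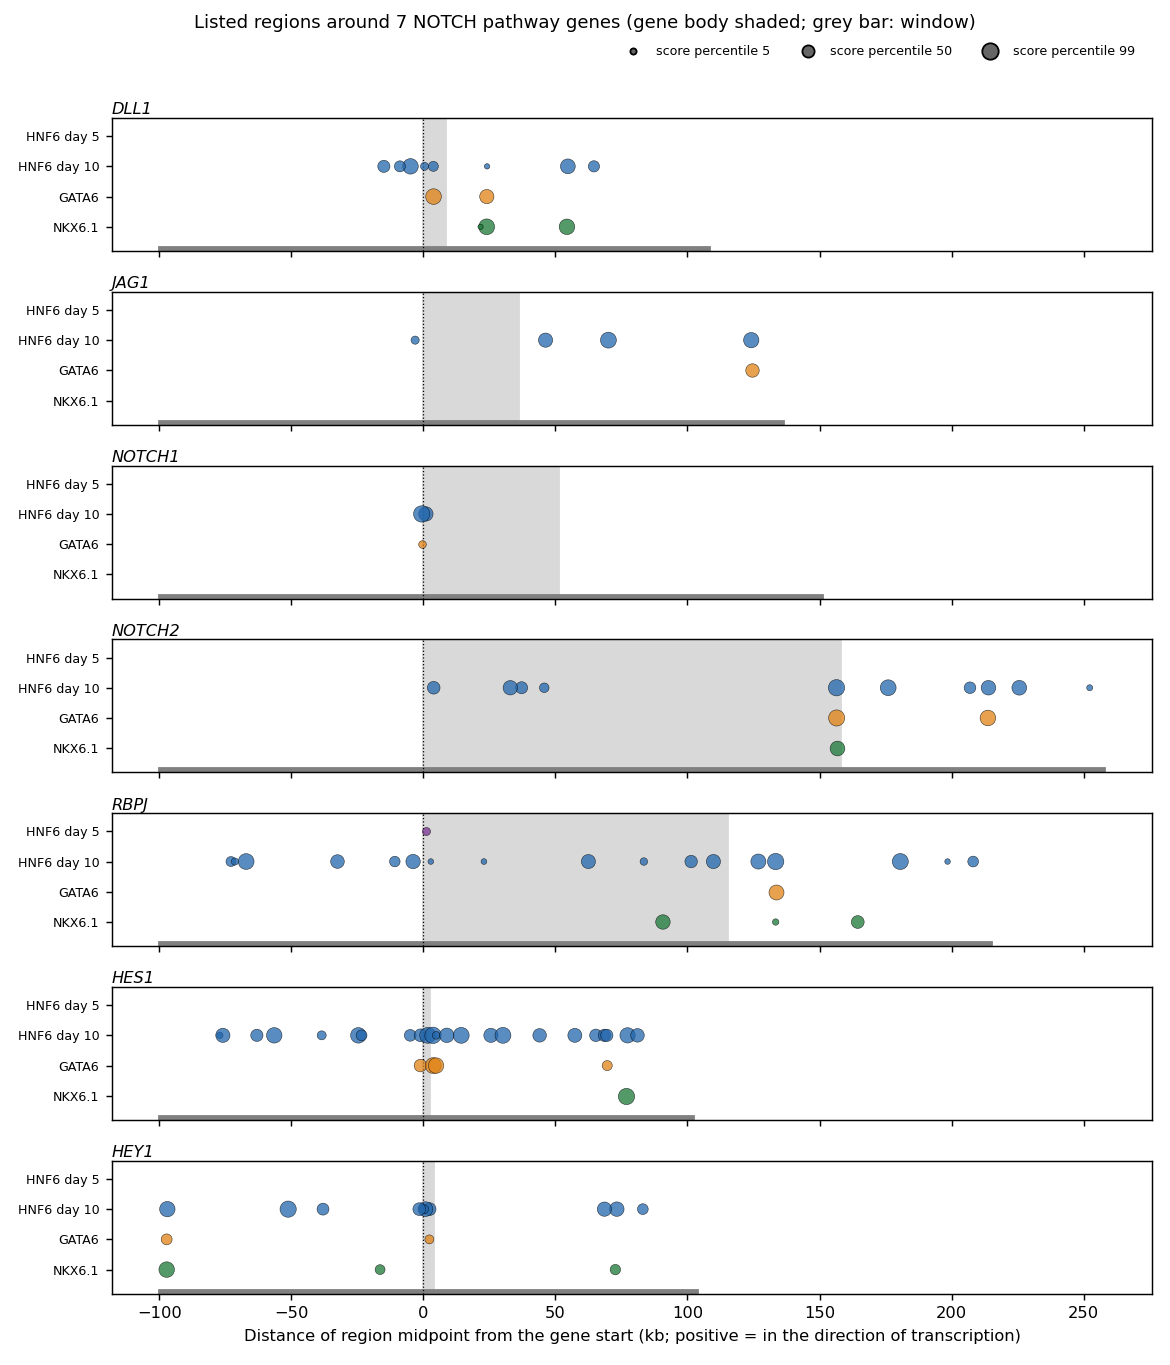
Each panel shows 1 gene, with the distance of region midpoints from its start in kb on the horizontal axis and the 4 lists as rows; dot size follows the score percentile, the shaded band is the gene and the grey bar its window. HNF6 day 10 regions (blue) flank HES1 on both sides, NOTCH1 has 2 next to its start and no others, and the 1 day 5 region lies at RBPJ.

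DLL1, a ligand of the Delta family, had 8 HNF6 regions, 2 GATA6 regions and 3 NKX6.1 regions. Its HNF6 scores had the lowest median of the 7 genes, 65, with a range from 17 to 322. The strongest HNF6 region lay 4.86 kb upstream of the start, on chromosome 6 at 170604319 to 170604790, with no listed partner. FAM120B is the nearest protein-coding gene on this side by RefSeq, and a region here cannot be assigned to either gene. The region closest to the start had a score of 38 and began 277 bp inside the gene. Another, 3.79 kb inside (score 53), overlapped the strongest GATA6 region of the locus, at 170595531 to 170596134, whose score of 491 is the GATA6 percentile 89.6. Thus a GATA6 region in the upper part of its list lay on an HNF6 region in the lower part of its own.

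Listed regions of all 3 factors, with NKX6.1 from day 13 and the others from day 10, overlapped downstream of DLL1, 24.1 kb from its start. The HNF6 region there, at 170575479 to 170575655, had a score of 17, the weakest of all 74 members (percentile 1.32). The overlapping regions of GATA6 (score 206, percentile 72.4) and NKX6.1 (score 185, percentile 91.6) ranked far higher in their lists. NKX6.1 shared only 12 bp with HNF6 at this place. A further NKX6.1 region, 54.4 kb from the start with a score of 150, lay 75 bp from an HNF6 region of score 201 without touching it. The last one, with a score of 14, was among the weakest of the NKX6.1 list.

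JAG1, the Jagged ligand mutated in Alagille syndrome, a disorder of bile ducts and other organs, had few regions. Its 4 HNF6 regions had scores of 40, 150, 500 and 284, in order from upstream to downstream. The weakest lay 3.11 kb upstream of the start, and the other 3 lay downstream of the gene, none inside it. The strongest, on chromosome 20 at 10584454 to 10584799, lay 33.7 kb past the end of the gene. The region farthest downstream, 124 kb from the start, overlapped the only GATA6 region of the window (score 152). SLX4IP is the nearest protein-coding gene on that side by RefSeq, and the 3 HNF6 regions downstream cannot be assigned to either gene. NKX6.1 had 0 regions in the window.

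NOTCH1, a receptor, had the fewest HNF6 regions and a very strong one among them. On chromosome 9 at 139440412 to 139441314, the strong region had a score of 1233, rank 1078 of 64919, and a width of 903 bp. Its near edge lay 174 bp upstream of the start, taken as the 5′ end of the hg19 interval. The other HNF6 region, with a score of 162, lay 956 bp inside the gene. In the whole window of 251 kb no list had any other region, apart from 1 GATA6 region that lay wholly inside the strong HNF6 region. That GATA6 region, at 139440603 to 139440800, was weak in its list, with a score of 41 (percentile 13.4). NKX6.1 had 0 regions there. By RefSeq the nearest protein-coding genes are EGFL7 upstream and SEC16A downstream.

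Because the strongest NOTCH1 region ended next to the start, the RefSeq bases upstream of NOTCH1 are printed here, 5′ to 3′, from chr9:136546049-136546298 on the minus strand of GRCh38.p14, which is another build than that of the peak lists.
NOTCH1: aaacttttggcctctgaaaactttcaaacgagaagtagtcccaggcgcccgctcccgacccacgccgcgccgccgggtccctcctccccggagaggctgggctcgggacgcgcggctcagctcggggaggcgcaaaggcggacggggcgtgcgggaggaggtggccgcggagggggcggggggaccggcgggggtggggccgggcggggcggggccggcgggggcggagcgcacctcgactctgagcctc
They are rich in G and C (76.0%). Motifs were searched on both strands as ATCAAT or ATCGAT for HNF6, AGATAA for GATA factors, TTAATTA for NKX6 factors and TGGGAA for RBPJ. None occurred in these 250 bases. Among all 35116 promoter entries of RefSeq, the same 250-base window held the HNF6 letters in 6.19%, the GATA letters in 9.17%, the NKX6 letters in 2.44% and the RBPJ letters in 20.8%. The gene interval is 51343 bp long on hg19 and 51616 bp in RefSeq on GRCh38, so the starts of both annotations need not be the same base. How far the HNF6 region covers the printed bases was therefore not determined.

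NOTCH2, the other receptor and the other Alagille syndrome gene, had all its regions inside the gene or downstream of it. Of its 10 HNF6 regions, 5 lay inside and 5 downstream, and no list had a region in the 100 kb upstream of the start. The strongest, on chromosome 1 at 120455684 to 120456068, had a score of 1149 (rank 1254) and lay inside the gene, 1.70 kb from its 3′ end and 156 kb from its start. It overlapped the strongest GATA6 region of all 7 windows (score 858, percentile 95.8) and the only NKX6.1 region of the window (score 97, percentile 78.1). The midpoints of HNF6 and NKX6.1 were 1 bp apart, and the NKX6.1 region lay wholly within that of HNF6. The other GATA6 region (score 472) overlapped an HNF6 region of score 178 downstream of the gene, at 120398180 to 120398519. ADAM30 is the nearest protein-coding gene downstream by RefSeq and SEC22B the nearest upstream. The regions downstream cannot be assigned to NOTCH2 or ADAM30 by position. Between the region 45.8 kb from the start and the one at the 3′ end, 111 kb held no HNF6 region. The HNF6 region closest to the start had a score of 89 and lay 3.91 kb inside. The 5′ part of NOTCH2 is known to have near-identical copies in the NOTCH2NL genes of chromosome 1. The sources used here do not say how reads shared by such copies were placed, so the number of regions in this part is uncertain.

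RBPJ encodes the DNA-binding partner of cleaved NOTCH receptors, and its window held the only HNF6 region of day 5. That region, on chromosome 4 at 26322323 to 26322506, lay 1.08 kb inside the gene with a score of 53 (percentile 15.8 of the day 5 list). It overlapped no region of day 10, whereas 90.4% of the day 5 list did. The nearest HNF6 region of day 10 lay 1563 bp away and was weak, with a score of 21. RBPJ has several starts: RefSeq gives 5 promoter entries for it, and distances here are from the 5′ end of the hg19 interval only.

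On day 10, the 17 HNF6 regions of RBPJ had a median score of 87, close to that of the whole list, and ranged from 19 to 1292. Of these, 6 lay upstream, 6 inside the gene and 5 downstream of the hg19 interval, which is 115421 bp long. RefSeq gives RBPJ a much longer interval on GRCh38, 329683 bp. Regions counted as upstream here may therefore lie inside the gene by RefSeq, which was not determined. The strongest HNF6 region, at 26454550 to 26454907, ranked 960 in the list and lay 18.0 kb past the 3′ end. It overlapped the only GATA6 region of the window (score 299) and an NKX6.1 region that ranked low in its list (score 19, percentile 6.11). The midpoint of NKX6.1 lay 7 bp and that of GATA6 19 bp from that of HNF6. The other NKX6.1 regions, with scores of 89 inside the gene and 62 downstream, lay 7.04 and 15.9 kb from the nearest HNF6 region. By RefSeq the nearest protein-coding genes are SMIM20 upstream and CCKAR downstream. Regions outside the RBPJ interval cannot be assigned to RBPJ or to these neighbours by position.

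HES1, the repressor best known as a NOTCH target in pancreatic progenitors, had the most HNF6 regions of the 7 genes and the strongest single one. Its 23 HNF6 regions had scores from 28 to 2332 with a median of 119, and 18 of the 23 lay in the upper part of the list, above its median. They lay 9 upstream, 1 inside the gene and 13 downstream, between 77.1 kb before and 81.1 kb after the start. Neighbouring regions were a median of 5.01 kb apart, against 23.3 kb in the whole list, and the widest space was 18.4 kb. The strongest, on chromosome 3 at 193857328 to 193857813, had the highest score of all members (2332, rank 152 of 64919). It lay 3.64 kb from the start, just past the 3′ end of this short gene. Of the 23, 4 were in the highest decile, with scores of 478, 508, 510 and 2332. By RefSeq the nearest protein-coding genes are CPN2 downstream and LOC102724877 upstream.

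GATA6 had 4 listed regions at HES1, a number reached by 0.603% of tiles for GATA6. Since every listed GATA6 region overlaps an HNF6 region, this number is not independent of the 23 HNF6 regions at HES1. One lay 1.09 kb upstream of the start (score 117), with an HNF6 region of score 95. Both others near the gene lay downstream within 5 kb of the start. The first, at 193857344 to 193858011 (score 600, percentile 92.1), overlapped the strongest HNF6 region. The next, at 193858454 to 193859028 (score 414), overlapped an HNF6 region of score 35, at 193858673 to 193858939. The last was weak (score 63) and lay 69.6 kb downstream. NKX6.1 had 1 region at HES1 and it was the strongest NKX6.1 member, at 193930704 to 193930890 with a score of 364 (rank 314 of 14627). It lay 132 bp from an HNF6 region of score 276 and did not touch it.

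The HES1 promoter is known for a pair of RBPJ sites through which NOTCH acts, and the RefSeq bases upstream of the start are printed to set these beside the listed regions. They are from chr3:194135898-194136147 on the plus strand of GRCh38.p14, 5′ to 3′, with the letters TGGGAA in capitals.
HES1: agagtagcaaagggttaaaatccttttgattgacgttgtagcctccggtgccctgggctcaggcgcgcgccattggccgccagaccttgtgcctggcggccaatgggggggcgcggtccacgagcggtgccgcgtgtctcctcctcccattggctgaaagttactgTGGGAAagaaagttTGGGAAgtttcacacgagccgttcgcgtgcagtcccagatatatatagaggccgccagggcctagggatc
The motif occurred at -84 to -79 and at -70 to -65, counted from the RefSeq start. At least 2 matches on either strand were present in 2.90% of all RefSeq promoter entries. Of the 9 entries for the 5 genes that matched by symbol (HES1, JAG1, NOTCH1, NOTCH2 and RBPJ), 1 of the RBPJ entries also held 2 matches, and the other 7 held 0. None of the 9 held the HNF6, GATA or NKX6 letters. On hg19 the listed region nearest to the HES1 start on the upstream side ended 896 bp from it, and the nearest on the other side began 1337 bp into the gene.

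HEY1, another repressor of the HES and HEY families, had 10 HNF6 regions with scores from 45 to 927 and a median of 125. Near the start lay 4 of them, at 1.54 kb upstream (score 90) and at 0.26, 0.784 and 2.35 kb inside the gene (scores 45, 199 and 96). The one at 2.35 kb overlapped a weak GATA6 region (score 52, percentile 22.0). The strongest lay 51.2 kb upstream, on chromosome 8 at 80731099 to 80731477, with a rank of 1880 and no listed partner. Listed regions of all 3 factors overlapped 96.9 kb upstream, with the HNF6 region at 80776794 to 80777256. Scores there were 297 for HNF6 (percentile 86.3), 76 for GATA6 (percentile 37.8) and 147 for NKX6.1 (percentile 88.3). This place was just inside the limit of the window, and the next HNF6 regions outside the limit at HEY1 and HES1, at 102 kb from the genes, had scores of 28 and 69. NKX6.1 had 2 other regions at HEY1, with scores of 41 and 37. TPD52-MRPS28 and STMN2 are the nearest protein-coding genes by RefSeq.

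**Figure D3:**
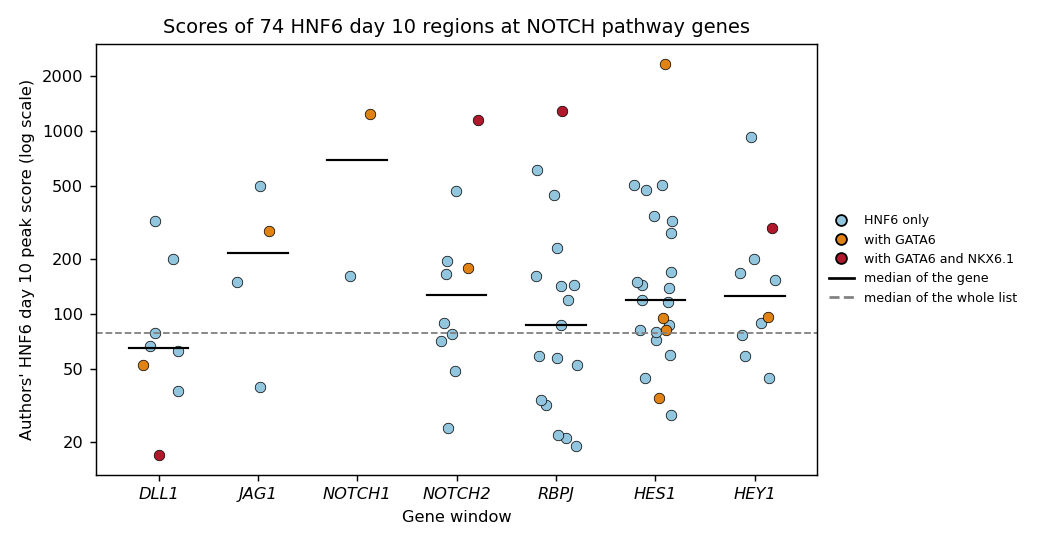
Each dot is 1 of the 74 HNF6 day 10 regions, with the authors' score on a log axis by gene; colours give overlap with listed GATA6 and NKX6.1 regions, black lines the median of each gene and the dashed line the median of the whole list (79). The 4 regions above a score of 1000, at HES1, RBPJ, NOTCH1 and NOTCH2, all overlapped GATA6, as did 53.2% of the regions above that score in the whole list.

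Regions with a second factor were counted over all 7 windows. GATA6 was found at 13 of the 74 HNF6 regions, or 17.6% (10.6 to 27.8), where 9.66% of the whole HNF6 list overlapped a listed GATA6 region. Each of the 7 genes had at least 1 such place, with 4 at HES1, 2 each at HEY1, DLL1 and NOTCH2 and 1 each at JAG1, NOTCH1 and RBPJ. The share was 16.7 to 21.1% with each gene left out in turn. Since each GATA6 region in the list overlaps an HNF6 region, the 13 GATA6 members all lay on HNF6 by the make-up of the list. The HNF6 regions with GATA6 had a median score of 178, with a range from 17 to 2332, and the 61 without it a median of 117, with a range from 19 to 927. In the whole list the medians were 235 and 77. Among the members, both ranges covered the scores from 19 to 927. The 4 HNF6 members with scores over 1000 all had GATA6, a limit chosen after seeing the values, and 53.2% of the HNF6 regions above it did so in the whole list. Below the highest decile GATA6 was at 9 of 62 members, or 14.5% (7.83 to 25.3), against 6.80% of such regions in the whole list. Within the highest decile it was at 4 of 12 members, or 33.3% (13.8 to 60.9), beside 35.4% of such regions in the whole list. For strong members the share was thus close to that of strong HNF6 regions in the list, with a wide interval. Midpoints of the 13 pairs lay 19 to 257.5 bp apart, with a median of 98.5 bp.

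NKX6.1 was found at 4 of the 74 HNF6 members, or 5.41% (2.12 to 13.1), against 3.2% of the whole HNF6 list, a share within the interval. All 4 of these also carried GATA6, at DLL1, HEY1, NOTCH2 and RBPJ, where 35.9% of the HNF6 regions with NKX6.1 in the whole list did. Regions with both partners were thus 5.41% of the members and 1.15% of the HNF6 list. Counted among HNF6 members with GATA6, NKX6.1 was at 4 of 13, or 30.8% (12.7 to 57.6), against 11.9% in the whole list. When 50% of the shorter region had to be covered, NKX6.1 was at 2.70% of the HNF6 members and 2.93% of the HNF6 list, and the number with both partners was 2, because NKX6.1 shared only 12 bp with HNF6 at DLL1 and 60 bp at HEY1. It was 1 among regions at or above the median score of their own lists. That place was the one at NOTCH2.

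Seen from the other side, 4 of the 11 NKX6.1 members overlapped HNF6, or 36.4% (15.2 to 64.6), where 14.3% of the NKX6.1 list did. With 50% of the shorter region covered the share was 18.2% (2 of 11) against 13.1% in the list. With each list limited to its strongest 6285 regions it was 16.7% (1 of 6) against 7.0%. At the main setting, the same 4 overlapped GATA6, against 5.18% of the list. Of the 7 without overlap, 3 lay within 500 bp of an HNF6 region, at 75 bp (DLL1), 132 bp (HES1) and 374 bp (HEY1). In the whole list 5.97% of the NKX6.1 regions without overlap lay that close, a distance chosen after seeing the values. HNF6 regions are denser in these windows than elsewhere (41.7 against 21.3 per Mb), and how far this bears on the NKX6.1 shares was not tested. The HNF6 and NKX6.1 lists differ at once in factor, antibody, day and library, whose effects cannot be told apart.

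**Figure D4:**
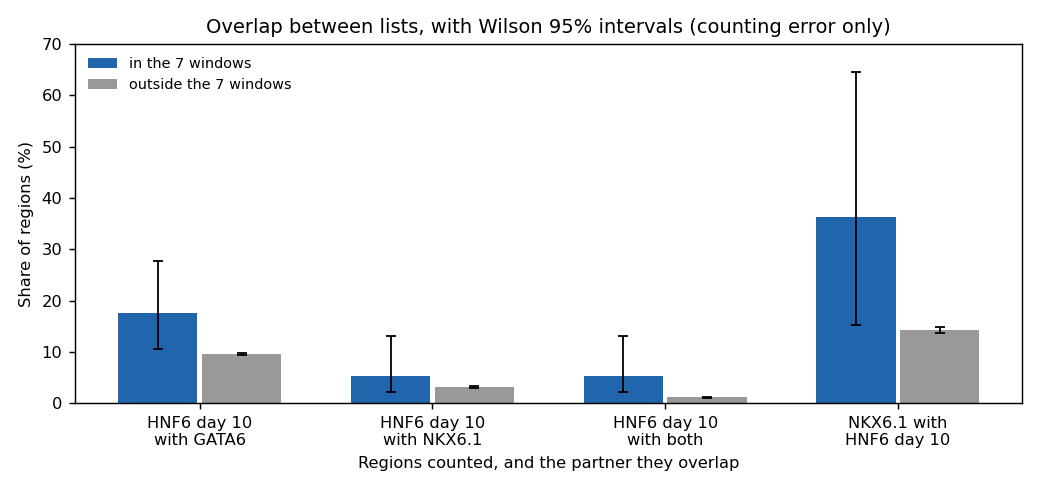
Bars show the share of regions (%) that overlap the partner named below them, in the 7 windows (blue) and outside them (grey), with Wilson 95% intervals. The share of HNF6 regions with GATA6 is 17.6% against 9.65%, and the intervals of HNF6 with NKX6.1 overlap.

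Regions close to a start were found for HNF6 and GATA6. HNF6 had 18 of its 74 members within 5 kb of a start, at least 1 at each of the 7 genes. This was 257 regions per Mb within 5 kb and 32.8 per Mb in the remaining windows. Of the 18, 0 covered the start, taken here as the 5′ end of the hg19 interval. The NOTCH1 interval is longer in RefSeq (51616 bp) than on hg19 (51343 bp). Whether its strong HNF6 region covers the RefSeq start was not determined. GATA6 had 6 of 13 within 5 kb, at HES1 (3), HEY1, DLL1 and NOTCH1. NKX6.1 had 0 of 11 there, and its member nearest to a start lay 16.4 kb upstream of HEY1. The HNF6 members near a start had a median score percentile of 56.3, against 67.6 for those farther away. The same comparison for all genes was not made, since no hg19 gene annotation was used here, and the other genes of the pathway were not placed for the same reason.

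The GATA6 list is partial, which bears on how many GATA6 regions were seen at each gene. Its peak numbers rise with position and run to 19404, of which 6285 (32.4%) were listed. At HES1 the numbers skip 1 peak between the region upstream of the start and the one past the 3′ end, and at HEY1 they skip 3 between its 2 listed regions. These 4 numbered peaks fall within the windows and were not analysed here. In the 6 windows with listed GATA6 regions on both sides, the numbers leave room for at most 6 (HES1, HEY1 and NOTCH1), 7 (JAG1), 15 (RBPJ) and 17 (NOTCH2) further peaks, some of which may lie outside the window. The counts of GATA6 regions are therefore lower limits for the peaks numbered by the authors. All 6285 listed regions overlap an HNF6 region of day 10. The counts and density of GATA6 given here thus describe listed GATA6 regions on HNF6, and not all GATA6 peaks. How the list was chosen is not stated in the sources used.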

How the data were processed

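Groups came from sample titles. The extraction protocol names an NKX6.1 antibody for every sample, per the labels' protocols, whereas the antibody characteristic matches each title. Bowtie2 2.3.4.1, MACS2 2.1.1.20160309 and hg19 appear in the submitters' processing notes, with no role or setting. Each list deposited by the authors gives position, name and a score of unstated unit per peak, called per library. Read depth is unknown, and a deeper library lists more regions.

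Rows with the same coordinates were merged, keeping the highest score. Gene intervals and their 100 kb limit were preset, and strands came from general knowledge. Overlap was counted from 1 bp (Python 3.11.15, pandas 2.3.3), checked against bedtools 2.31.1 and tested on simulated data. Wilson 95% intervals came from statsmodels 0.14.6. Tiles of 200 kb ran to the farthest listed position of each chromosome. Promoters and neighbours are from RefSeq (GRCh38.p14); no coordinate was carried between builds. Members and measures were chosen with earlier results of these data known. Regions were named by rule: the strongest of each list per gene, day 5 regions, places of 2 or more factors, and those within 5 kb of or nearest to a start. Alternatives changed the window, overlap, scores kept, merging and genes.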

Additional observations from a re-analysis of the deposited data

How the results depend on the processing

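No paired analysis was possible because each group had 1 library. With windows of 50 kb there were 48 HNF6 day 10 members, and with 200 kb there were 114, beside 21 for NKX6.1. The density ratio of HNF6 on day 5, which rests on 1 region, was 11.4 at 50 kb and 3.85 at 200 kb. At or above the median score of each list there were 48 HNF6 day 10 members, 7 for NKX6.1 and 0 for day 5 (density ratio 0), and 1 place with all 3 factors. That number was 2 with 50% of the shorter region covered. With each list limited to the length of the GATA6 list, it was 1. The share of HNF6 members with GATA6 was then 33.3% (4 of 12) beside 35.9% of all such HNF6 regions. These 12 are the members of the highest decile given above, so this is not a separate check. They are too few to place the members above or below the list. Without RBPJ there were 0 day 5 members and the day 5 density ratio was 0; no day 5 percentile could then be given. Of 191 alternatives for pooled values, 176 stayed within the limits set (1.5 times for counts and ratios, the 95% interval for shares and medians). These limits were wide, so the tally says little about stability. The share of NKX6.1 members with HNF6 counted as within them at 16.7%, against 36.4% at the main setting. The day 5 median, which rests on 1 region, could not move while that region was kept. The density ratio of HNF6 on day 10 ran from 1.52 (without HES1) to 2.52, that of GATA6 from 2.45 to 4.88, and that of NKX6.1 from 1.06 to 1.61. Ratios with genes left out and shifted tiles were added after the data had been seen. Read depth, which would limit how many weak regions each list can hold, is unknown.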
